A study of Homo sapiens with 6 samples.

Results

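The 10 genes described here encode subunits, inhibitors and direct targets of the transcription factor NF-kB. They were chosen by name for these roles, with earlier results of these data known. All 10 were found among the 60728 gene records of the count table. They also passed the filter on low counts, which left 15548 genes. RNA was sequenced from JJN3, an established human multiple myeloma cell line labelled wild type. Each of 3 conditions had 2 libraries, namely vehicle (DMSO), 2 h of WNK463 and 6 h of WNK463. WNK463 inhibits WNK kinases, which regulate cation-chloride cotransport. The sources differ on its dose (5 µM with the samples, 1 µM in the series text), and they give no time for DMSO. All groups were of the same line and grew in serum-containing medium.

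NF-kB factors are dimers of proteins that share a Rel homology domain. In the canonical pathway, receptor signals activate the IKK kinase complex, which marks the IkB inhibitors for destruction and frees dimers containing RELA, REL and the product of NFKB1. In the noncanonical pathway, the kinase encoded by MAP3K14 promotes the processing of the NFKB2 product, which pairs with RELB; a complex of TRAF2, TRAF3 and the proteins encoded by BIRC2 and BIRC3 keeps that kinase low. The factors induce several of their own inhibitors, which makes the pathway a feedback loop, and activating lesions in it are recurrent in myeloma.

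The letters before the start site of 5 members are shown because they set the genes that moved beside one that was not called. Promoters came from RefSeq (GRCh38.p14, the same assembly as the authors' hg38), where 8 of the 10 members matched by symbol; NFKBIE and RELB did not. Each run reads 5′ to 3′ on the gene's strand, begins 250 bases before the RefSeq start and stops before the gene's first exon in the authors' annotation. Capitals mark matches on either strand to the kB consensus, the DNA pattern bound by NF-kB dimers.
NFKBIA, chr14:35404750-35404999, minus strand: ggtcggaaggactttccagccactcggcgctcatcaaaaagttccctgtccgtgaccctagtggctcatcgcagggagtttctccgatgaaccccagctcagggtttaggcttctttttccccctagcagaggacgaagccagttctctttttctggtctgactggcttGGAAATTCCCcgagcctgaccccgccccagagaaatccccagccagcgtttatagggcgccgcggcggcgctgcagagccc
BIRC3, chr11:102317234-102317449, plus strand: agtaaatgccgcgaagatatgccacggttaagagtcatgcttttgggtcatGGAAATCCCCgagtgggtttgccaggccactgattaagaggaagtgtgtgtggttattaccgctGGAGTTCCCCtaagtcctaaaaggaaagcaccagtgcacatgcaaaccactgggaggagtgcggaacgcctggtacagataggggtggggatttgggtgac
ICAM1, chr19:10270870-10271092, plus strand: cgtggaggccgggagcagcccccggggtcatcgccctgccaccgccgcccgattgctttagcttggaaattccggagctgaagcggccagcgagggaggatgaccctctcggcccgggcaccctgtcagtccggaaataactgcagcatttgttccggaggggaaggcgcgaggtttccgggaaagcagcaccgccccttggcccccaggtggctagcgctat
TNFAIP3, chr6:137867009-137867213, plus strand: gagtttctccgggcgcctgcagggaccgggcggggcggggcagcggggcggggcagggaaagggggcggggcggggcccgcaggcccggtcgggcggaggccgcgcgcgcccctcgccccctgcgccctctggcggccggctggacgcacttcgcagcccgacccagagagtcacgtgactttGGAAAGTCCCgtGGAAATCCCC
NFKB1, chr4:102501109-102501330, plus strand: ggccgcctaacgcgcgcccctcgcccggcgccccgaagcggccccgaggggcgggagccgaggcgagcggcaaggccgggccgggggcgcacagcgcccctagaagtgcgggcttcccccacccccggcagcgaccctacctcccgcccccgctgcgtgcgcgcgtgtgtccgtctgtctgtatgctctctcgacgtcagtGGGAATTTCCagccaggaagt

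NFKBIA holds a match in the 81 to 72 bases before its RefSeq start. BIRC3 holds 2, whose first bases lie 199 and 135 bases before the start. TNFAIP3 has 2 matches, from 67 and from 55 bases before the start, and NFKB1 has 1 from 49 bases before it. No match to this pattern lies in the ICAM1 window. The search allowed no mismatch, and the run tggaaattcc in that window differs from the pattern in its first base alone. Over the 12 windows of the 8 matched members, 9 (75%) held the consensus in the 250 bases before a start, against 9.96% of 35116 RefSeq promoters. The members were named as direct targets and regulators of NF-kB, so these shares describe the choice of genes, and a match is not evidence of binding.

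Libraries held between 18013790 and 24002291 counted fragments, so a count of 3 was worth 0.125 to 0.167 CPM (counts relative to the library total) before scaling by TMM factors of 0.977 to 1.025. Log CPM correlated at 0.982 to 0.984 between replicates and at 0.966 to 0.976 between groups. All 8 plasma cell markers were present, with mean levels from 17.7 CPM upward and IRF4 highest at 622 CPM. Markers of T and NK cells summed to at most 0.598 CPM in any library, with CD3D, CD3G and GNLY at 0 counts, and those of stromal cells to at most 0.979 CPM, with LUM at 0. Myeloid markers summed to between 1.04 and 2.06 CPM, and B cell markers to 3.60 to 4.44 CPM in DMSO, 3.24 to 4.37 at 2 h and 1.44 to 2.44 at 6 h, with CD22 at 0. The 5 epithelial markers summed to 102 CPM in both DMSO libraries, 126 to 130 CPM at 2 h and 119 to 126 CPM at 6 h. EPCAM averaged 91, 111 and 104 CPM in DMSO, at 2 h and at 6 h, KRT18 5.82, 8.47 and 7.73 CPM, and CDH1 4.93, 7.55 and 10.4 CPM. Of the erythroid genes, HBA1 averaged 0.126, 0.746 and 0.0763 CPM, so that it too was highest at 2 h, with ALAS2 at 0.0472 CPM in DMSO and 0 in both treated groups, and HBB at 0 throughout. The part of these shifts in the results was not tested. Whether the replicates came from separate cultures is not stated, and the p-values therefore reflect the spread between these libraries alone, which may be technical. In bulk RNA, fewer cells expressing a gene and less of its RNA per cell cannot be told apart.

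Per kilobase of exon, NFKB2, a subunit precursor of the noncanonical pathway, was the most abundant of the 10 in DMSO, at 45.8 ± 2.60 RPKM (SD, n = 2), above 94.5% of the genes tested. BIRC3, which encodes an inhibitor of apoptosis and ubiquitin ligase, followed at 29.8 ± 2.06 RPKM. TNFAIP3, the gene of a ubiquitin-editing enzyme that shuts off signalling to IKK, stood at 26.9 ± 0.0456 RPKM. NFKBIA, which encodes IkB alpha, stood at 22.9 ± 0.316 RPKM and NFKB1 at 18.8 ± 0.531 RPKM. Below them came NFKBIE, which encodes IkB epsilon, at 16.6 ± 0.894 RPKM. The adhesion molecule gene ICAM1 stood at 11.7 ± 1.20 RPKM and RELB at 9.91 ± 1.10 RPKM. NFKBIZ, which encodes a nuclear IkB protein that acts with NF-kB on a subset of targets, had 1.79 ± 0.111 RPKM, and REL 1.19 ± 0.329 RPKM. Only ICAM1 and RELB, as neighbours in this order, differed by less than the sum of their SDs. At 2 h BIRC3 (42.2 ± 2.52 RPKM) came within the summed SDs of NFKB2 (44.3 ± 0.308 RPKM), and ICAM1 (19.9 ± 0.400 RPKM) stood beside NFKBIE (19.4 ± 1.05 RPKM) with overlapping libraries. NFKBIA (31.4 ± 3.05 RPKM) then stood above TNFAIP3 (28.1 ± 0.591 RPKM), within their summed SDs though without overlap of libraries. At 6 h NFKB2 again led, at 43.3 ± 1.5 RPKM, and RELB (12.3 ± 0.996 RPKM) and ICAM1 (11.6 ± 0.254 RPKM) overlapped. Counting left out fragments shared by several genes, and 43.3% of REL's exonic length lies in a second record with 0 counts (ENSG00000267520), so REL's level per length is understated. The same holds for ICAM1, which shares 25.4% of its exonic length with the antisense genes ICAM4-AS1 and LIMASI (1 and 0 counts over all libraries). On the exonic length that no other record shares, a measure added after seeing the data, the order changes. REL, at 1.69 and 2.5 RPKM in DMSO, then overlapped NFKBIZ (1.77 and 1.93 RPKM). ICAM1 then stood at 16.9 and 14.6 RPKM in DMSO, overlapping NFKBIE (17.2 and 15.9 RPKM) and above RELB (10.7 and 9.13 RPKM). At 2 h ICAM1 was then above NFKB1 and NFKBIE, at 27.1 and 26.4 RPKM, and at 6 h it was above RELB, at 15.4 and 15.8 RPKM.

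**Figure D1:**
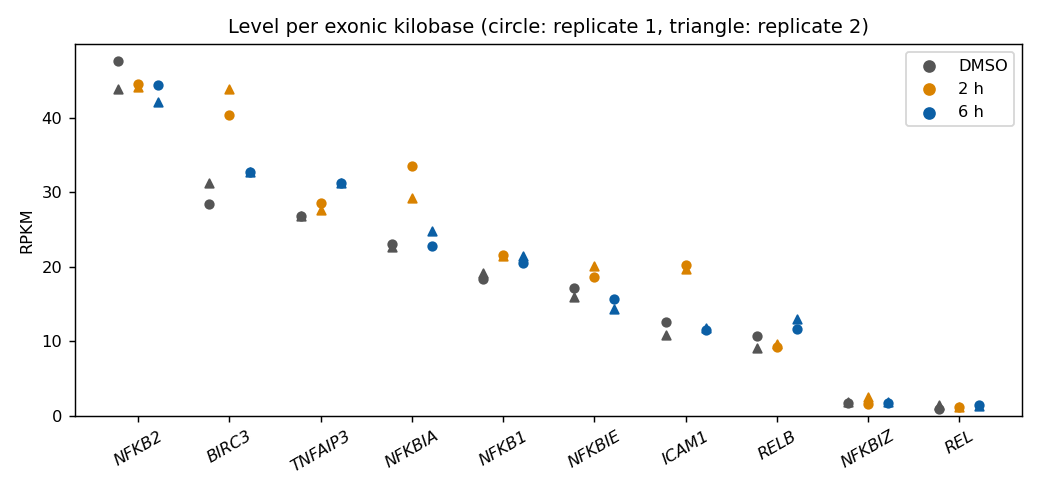
Level of each member in RPKM (CPM per kilobase of exon) on the vertical axis, by gene in the order of their DMSO means, with 2 points per group, DMSO, 2 h and 6 h (circle, replicate 1; triangle, replicate 2). By whole exonic length, NFKB2 is highest in DMSO at 45.8 RPKM and REL lowest at 1.19 RPKM, though REL overlaps NFKBIZ on unshared length; the 2 h points of BIRC3, NFKBIA and ICAM1 lie above those of both other groups.

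At 2 h against DMSO, the earlier of the times, 3 of the 10 genes rose, namely NFKBIA, BIRC3 and ICAM1. These are an inhibitor and both genes listed as targets alone, although NF-kB also induces several of its inhibitors. None of the other members was called, that is, had an adjusted p under 0.05 over all genes tested (edgeR quasi-likelihood test, Benjamini-Hochberg). The 3 of 10 called higher stand against 8.68% of the 15548 genes called higher in this comparison, and the median log2 change was 0.21 over the members and -0.00488 over all genes. Lower calls numbered 0, against 8.32% of all genes (0 members also at an unadjusted p under 0.05, in DESeq2 and in limma voom). Shares of all genes, here and below, were not matched for expression level. Every member averaged above 4 CPM, and among all genes with at least that mean a larger share was called.

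ICAM1 had 43.4 and 37.5 CPM in the DMSO libraries, 69.7 and 67.8 CPM at 2 h and 39.5 and 40.8 CPM at 6 h. Both 2 h libraries lay above all others, and the 6 h values fell within the DMSO range. The rise at 2 h was 1.70-fold (log2 change 0.77 ± 0.101 SE, adjusted p = 1.12e-07). ICAM1 spans chromosome 19 from 10271093 to 10286615 (ENSG00000090339.9).

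BIRC3 had 213 and 235 CPM in DMSO, 304 and 330 CPM at 2 h and 247 and 246 CPM at 6 h. Neither 2 h library came near the other groups. Its rise was 1.41-fold (0.50 ± 0.0646, adjusted p = 7.89e-08). The gene lies on chromosome 11 from 102317450 to 102339403 (ENSG00000023445.16), and 1.68% of its exonic length overlaps an antisense gene.

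NFKBIA had 54.8 and 53.7 CPM in DMSO, 79.7 and 69.4 CPM at 2 h and 54.1 and 58.8 CPM at 6 h. The 2 h libraries were again the highest, with replicate 1 above replicate 2, while DMSO and 6 h overlapped. It rose 1.37-fold at 2 h (0.46 ± 0.0944, adjusted p = 0.000339), and it spans chromosome 14 from 35401513 to 35404749 on the minus strand (ENSG00000100906.11). These 3 calls at 2 h held under each of the 15 other settings tried, with largest adjusted p-values of 1.57e-06, 6.38e-05 and 0.0427 for ICAM1, BIRC3 and NFKBIA.

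**Figure D2:**
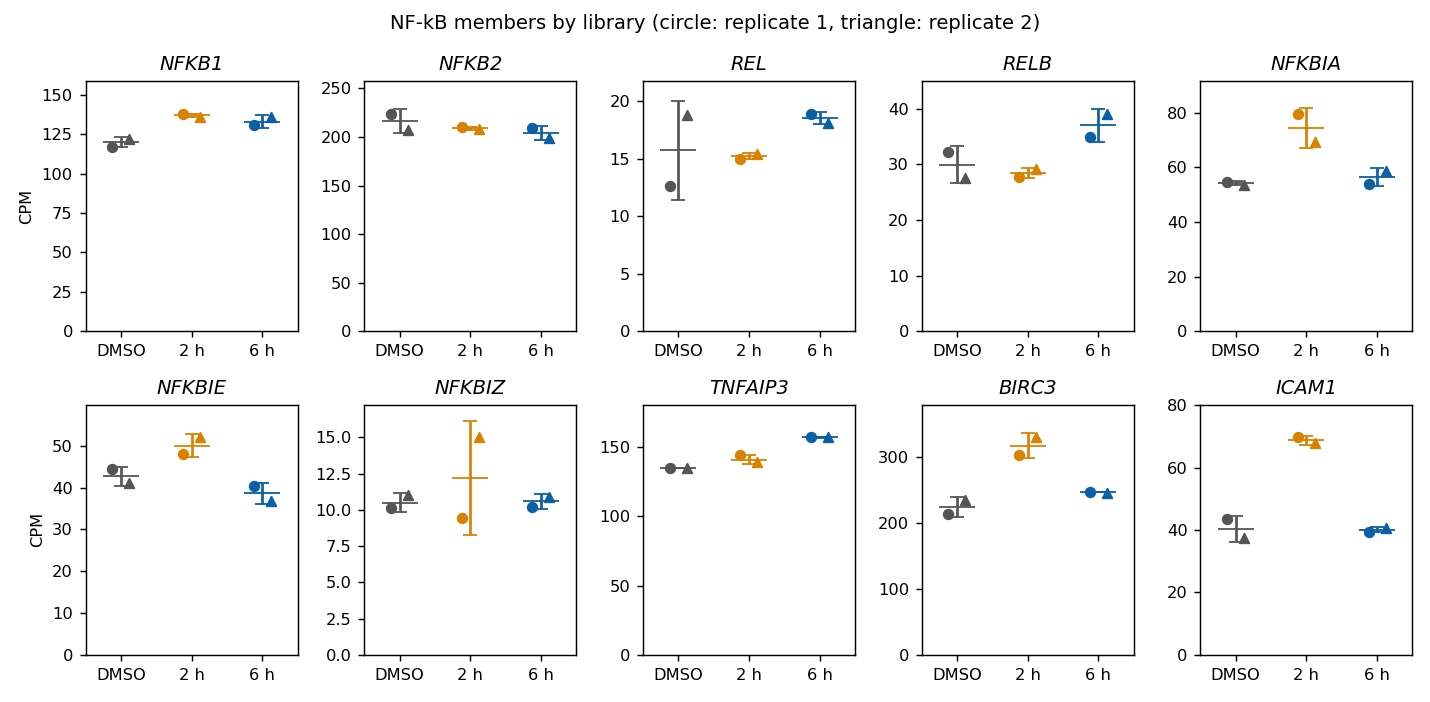
CPM of each of the 10 members on a vertical axis that starts at 0, by group (DMSO, 2 h and 6 h of WNK463), with a circle for replicate 1, a triangle for replicate 2, and a bar and whiskers for the mean and SD (n = 2). ICAM1, BIRC3 and NFKBIA peak at 2 h, RELB and TNFAIP3 are highest at 6 h, and REL has its widest spread in DMSO (12.6 and 18.8 CPM).

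The remaining inhibitors did not pass the test at 2 h. NFKBIE had 44.4 and 41.1 CPM in DMSO, 48.1 and 52.0 CPM at 2 h and 40.4 and 36.8 CPM at 6 h. Its groups did not overlap, with 2 h highest and 6 h lowest, and the log2 change at 2 h was 0.23 ± 0.104 (adjusted p = 0.131). The gene spans chromosome 6 from 44258166 to 44265788 on the minus strand (ENSG00000146232.17). TNFAIP3 stood at 135 CPM in both DMSO libraries, 144 and 139 CPM at 2 h and 157 CPM in both 6 h libraries. NFKBIZ had 10.1 and 11 CPM in DMSO and 9.46 and 15 CPM at 2 h, a spread wider than any difference between its groups. At 6 h it had 10.2 and 10.9 CPM, inside the range of the other groups. The gene lies on chromosome 3 from 101827991 to 101861022 (ENSG00000144802.11) and shares 3.29% of its exonic length with NXPE3 on the same strand.

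No subunit was called at 2 h (1 at an unadjusted p under 0.05, NFKB1, and 0 in DESeq2 and limma voom). NFKB1 had 117 and 122 CPM in DMSO, 138 and 136 CPM at 2 h and 131 and 136 CPM at 6 h. All 4 treated libraries lay above both DMSO libraries, with log2 changes of 0.19 ± 0.0731 (adjusted p = 0.0608) at 2 h and 0.16 ± 0.0732 (adjusted p = 0.0890) at 6 h. NFKB1 was called at both times with a mean of at least 4 CPM (adjusted p = 0.0453 and 0.041). With library size alone it was called at 6 h (adjusted p = 0.0333). Its log2 changes at 2 h and 6 h were 0.23 and 0.19 without DMSO replicate 2. They were 0.17 and 0.13 without DMSO replicate 1. NFKB2 had 224 and 207 CPM in DMSO, 210 and 208 CPM at 2 h and 209 and 199 CPM at 6 h. Its groups overlapped throughout, with log2 changes of -0.05 ± 0.0663 and -0.08 ± 0.0664. REL had 12.6 and 18.8 CPM in DMSO, 15 and 15.4 CPM at 2 h and 18.9 and 18.1 CPM at 6 h. The subunit genes lie on chromosome 4 from 102501331 to 102617302 (NFKB1, ENSG00000109320.13), chromosome 10 from 102394110 to 102402524 (NFKB2, ENSG00000077150.20) and chromosome 2 from 60881521 to 60931612 (REL, ENSG00000162924.15). The DMSO libraries of REL differed from each other by more than its groups did. Without DMSO replicate 2 it was called higher at 6 h (0.55, adjusted p = 0.0151), and without DMSO replicate 1 the estimate was -0.02 (adjusted p = 0.943).

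At 6 h against DMSO, RELB, the noncanonical subunit, and TNFAIP3 rose, and the members that had risen at 2 h were no longer called against DMSO. The 2 of 10 called higher compare with 18.0% of all genes called higher at 6 h, so the share of members was near the background. Lower calls again numbered 0, against 18.6% of all genes (0 also at an unadjusted p under 0.05, in DESeq2 and in limma voom). The members' median log2 change was 0.10, beside -0.00498 over all genes.

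RELB had 32.2 and 27.5 CPM in DMSO, 27.8 and 29.1 CPM at 2 h and 34.9 and 39.1 CPM at 6 h. Both 6 h libraries lay above the other 4, which overlapped. It rose 1.24-fold (log2 change 0.31 ± 0.119, adjusted p = 0.0358), and the gene spans chromosome 19 from 45001449 to 45038198 (ENSG00000104856.14). Leaving out DMSO replicate 2 ended the call (0.20, adjusted p = 0.279), as did the fits without 6 h replicate 2 (0.23, adjusted p = 0.317), in DESeq2 (adjusted p = 0.0638) and with no filter on low counts (adjusted p = 0.0565).

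TNFAIP3 rose 1.16-fold at 6 h (0.22 ± 0.0709, adjusted p = 0.0132), and spans chromosome 6 from 137867214 to 137883312 (ENSG00000118503.15). Its replicates nearly coincided in DMSO and at 6 h, and both 6 h libraries lay above all others. This call was lost without 6 h replicate 1 (adjusted p = 0.110) or 6 h replicate 2 (adjusted p = 0.104), with the estimate unchanged at 0.22. WAKMAR2, which shares 1.89% of TNFAIP3's exonic length on the opposite strand, fell at 6 h from 20.1 to 15 CPM (-0.42, adjusted p = 0.0235).

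At 6 h BIRC3 stood at 247 ± 0.157 CPM against 224 ± 15.5 CPM in DMSO, a log2 change of 0.14 ± 0.0649 (adjusted p = 0.0974). Both 6 h libraries lay above both DMSO libraries. Leaving out DMSO replicate 2 gave a call for BIRC3 (0.21, adjusted p = 0.00187), and leaving out DMSO replicate 1 lowered the estimate to 0.07 (adjusted p = 0.398). It was also called with library size alone (adjusted p = 0.0321) and with a mean of at least 4 CPM (adjusted p = 0.0438). For ICAM1 the change was -0.01 ± 0.103 and for NFKBIA 0.06 ± 0.0956. NFKBIE stood at 38.6 ± 2.55 CPM, a log2 change of -0.14 ± 0.106 (adjusted p = 0.307).

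**Figure D3:**
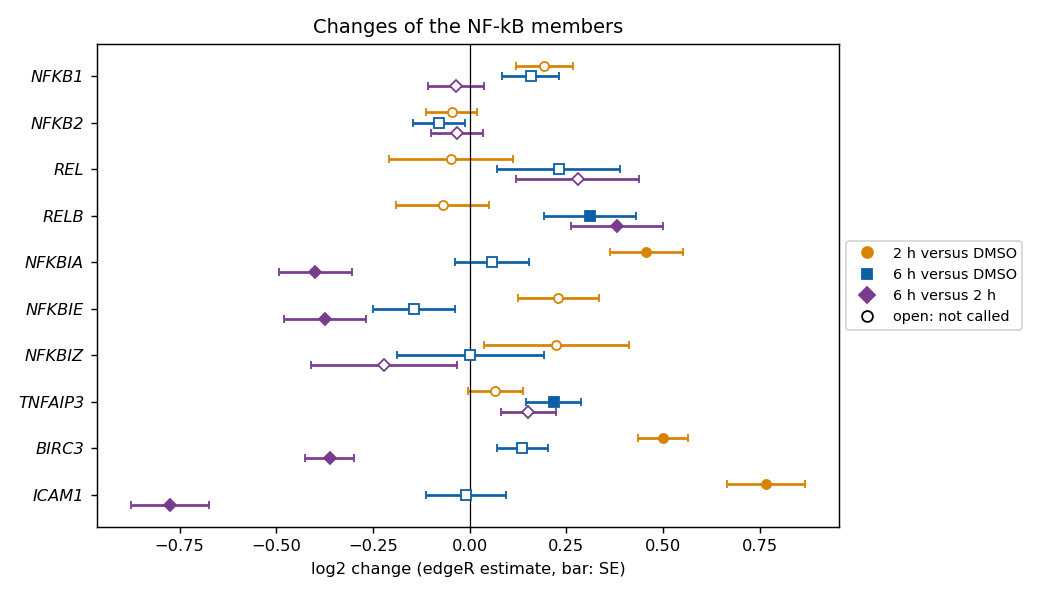
Log2 change of each member on the horizontal axis with its SE as a bar, for 2 h against DMSO (circles), 6 h against DMSO (squares) and 6 h against 2 h (diamonds); filled symbols had an adjusted p under 0.05. ICAM1 (0.77 at 2 h, -0.78 from 2 h to 6 h), BIRC3 and NFKBIA are filled to the right at 2 h and to the left from 2 h to 6 h, and RELB and TNFAIP3 are filled at 6 h.

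The direct comparison of 6 h with 2 h tested the shift between the times. ICAM1, BIRC3, NFKBIA and NFKBIE fell, and RELB rose. That is 4 of 10 lower, against 13.1% of all genes, and 1 higher, against 11.1%; in either direction 5 of 10 were called, against 24.3%. Of the genes called among all tested, 45.9% were higher at 6 h, and 61.3% were with library size alone as the scaling. The median was -0.13 over the members and 0.01 over all genes. ICAM1 fell to 0.584 of its 2 h level (-0.78 ± 0.101, adjusted p = 5.62e-08) and BIRC3 to 0.778 (-0.36 ± 0.0644, adjusted p = 2.20e-05), and both calls held under all 15 other settings. NFKBIA fell by 0.40 ± 0.0942 (adjusted p = 0.00106), a call lost without 2 h replicate 1 (adjusted p = 0.0854) or 6 h replicate 1 (adjusted p = 0.0584). NFKBIE fell by 0.37 ± 0.105 (adjusted p = 0.00607), a call lost without 2 h replicate 2 (adjusted p = 0.114) or 6 h replicate 2 (adjusted p = 0.138). RELB rose 1.30-fold (0.38 ± 0.119, adjusted p = 0.0141), which was lost without 2 h replicate 1 (adjusted p = 0.116), 2 h replicate 2 (adjusted p = 0.0555) or 6 h replicate 2 (adjusted p = 0.223). TNFAIP3 stood higher at 6 h than at 2 h in both libraries (0.15 ± 0.0707, adjusted p = 0.116). It was called without DMSO replicate 1 (adjusted p = 0.0311) or DMSO replicate 2 (adjusted p = 0.0403), with library size alone (0.22, adjusted p = 0.0176), and in 2 other settings.

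Across the 6 libraries, log CPM of ICAM1 correlated with that of NFKBIA at 0.949, BIRC3 at 0.882 and NFKBIE at 0.867 (Pearson's r, as a description over libraries that share groups and depth). RELB correlated with TNFAIP3 at 0.775 and with NFKBIE at -0.711. NFKB2 correlated negatively with NFKB1 (-0.699) and REL (-0.794). Among 10472 other named genes, each averaging 4 CPM or more, the patterns most like that of NFKBIA were those of PIGW (r = 0.993), ICAM5 (0.992) and BCORL1 (0.986). Each of them was also highest at 2 h, which follows from their choice by likeness to NFKBIA. PIGW averaged 25.2, 31.7 and 25.9 CPM in DMSO, at 2 h and at 6 h. For NFKB2 the nearest were R3HCC1 (0.983), GSE1 (0.981) and MORC2 (0.973), all of them highest in DMSO by mean. NFKB2 itself was not called in any comparison and its groups overlapped, so these matches do not describe a response to WNK463.

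The other genes of the pathway were taken from a list of 90 by role, of which 89 had a count record (SOD2 was not matched) and 77 passed the filter. At 2 h 13 of the 77 rose and 7 fell (26.0% called, against 17.0% of all genes), with a median log2 change of 0.07. At 6 h 27 rose and 12 fell (50.6%, against 36.6%), with a median of 0.12. The counts by role that follow are to be read against the shares of all genes called higher and lower, 8.68% and 8.32% at 2 h and 18.0% and 18.6% at 6 h. Those shares were larger among genes that averaged at least 4 CPM. From 2 h to 6 h 10 rose and 4 fell (18.2%, against 24.3%), with a median of 0.03. The shares of all genes were not matched for expression level. Of the 77, 63 averaged at least 4 CPM, with 17 of these called at 2 h and 35 at 6 h. Among all genes with at least that mean, the share called was larger than 17.0% at 2 h and than 36.6% at 6 h. The part of expression level in the differences from all genes was not tested. Without 6 h replicate 1 the 39 called at 6 h became 25 (17 higher and 8 lower), and without 2 h replicate 2 the 14 called between the times became 9. Of the 35 called at 6 h with a mean of at least 4 CPM, 19 kept their call under all 15 alternatives, and the genes described with a call at 6 h below are among those unless said otherwise.

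In the noncanonical pathway, MAP3K14 and the adaptor genes TRAF2 and TRAF3 fell at both times. MAP3K14, which encodes the NF-kB-inducing kinase, had 54.9 and 56.1 CPM in DMSO, 33.1 and 35.0 CPM at 2 h and 31.7 and 31.2 CPM at 6 h. All treated libraries lay well below DMSO, and it fell by 0.70 ± 0.106 at 2 h (adjusted p = 1.79e-06) and by 0.82 ± 0.107 at 6 h (adjusted p = 2.09e-08). TRAF3, the adaptor that binds this kinase, fell from 221 and 225 CPM to 174 and 182 CPM at 2 h and 152 and 153 CPM at 6 h (-0.33 ± 0.0669, adjusted p = 0.000298, and -0.55 ± 0.0674, adjusted p = 5.22e-09). TRAF2, its partner adaptor, fell from 42.0 and 38.0 CPM to 26.7 and 26.2 CPM and then 25.7 and 27.2 CPM (-0.60 at both times, adjusted p = 0.000165 and 5.94e-05). For all 3 genes the treated and DMSO libraries did not overlap. BIRC2, the close relative of BIRC3 in that complex, had 48.5 and 54.9 CPM in DMSO, 38.4 and 44.4 CPM at 2 h and 59.8 and 63.7 CPM at 6 h. BIRC2 rose by 0.57 ± 0.102 from 2 h to 6 h (adjusted p = 2.17e-05), under every alternative, where BIRC3 fell. The fall of BIRC2 at 2 h (-0.32, adjusted p = 0.0244) was lost without 2 h replicate 1 (adjusted p = 0.327) or DMSO replicate 2 (adjusted p = 0.206) and in the fit of those groups alone (0.0518). Its rise at 6 h (0.26, adjusted p = 0.0423) was lost in 7 settings, among them without DMSO replicate 1 (adjusted p = 0.256), 2 h replicate 1 (0.0501), 2 h replicate 2 (0.0523), 6 h replicate 1 (0.0882) and 6 h replicate 2 (0.275).

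Of the 6 other subunit and IkB genes, 1 rose at 2 h (16.7% called, against 17.0% of all genes) and 2 rose and 1 fell at 6 h (50%, against 36.6%). BCL3, a nuclear IkB protein and itself an NF-kB target, rose from 45.5 and 36.3 CPM to 65.3 and 58.5 CPM at 2 h and 54.6 and 59.1 CPM at 6 h (0.60 ± 0.105, adjusted p = 2.64e-05, and 0.48 ± 0.105, adjusted p = 0.000264). RELA, the main activating subunit of the canonical pathway, averaged 148, 138 and 137 CPM (adjusted p = 0.374 and 0.239). NKIRAS1 (0.56, adjusted p = 0.0268) and NFKBIB (-0.28, adjusted p = 0.0276) were called at 6 h, and each lost its call without 6 h replicate 1 (adjusted p = 0.131 and 0.171) or 6 h replicate 2 (0.0556 and 0.112). NKIRAS1 also lost it without DMSO replicate 2 (adjusted p = 0.263) and in DESeq2 (0.0792), and NFKBIB without DMSO replicate 1 (0.169), with library size alone (0.0561) and with no filter on low counts (0.0516).

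Among 10 tested receptors 2 rose at each time, or 20.0%, which is near the 18.0% of all genes called higher at 6 h and stands against 8.68% at 2 h. TNFRSF1A, a receptor for TNF, had 24.3 and 24.9 CPM in DMSO, 52.3 and 54.0 CPM at 2 h and 45.3 and 52.2 CPM at 6 h. Its treated libraries were all above the DMSO libraries (1.11 ± 0.110, adjusted p = 7.26e-11, and 0.99 ± 0.110, adjusted p = 5.02e-10). The other TNF receptor gene, TNFRSF1B, was more abundant, averaging 304, 299 and 301 CPM in DMSO, at 2 h and at 6 h. It was not called (adjusted p = 0.852 and 0.914). TNFRSF12A, the receptor for TWEAK, rose at 2 h (0.79 ± 0.193, adjusted p = 0.00239) and at 6 h (0.63 ± 0.195, adjusted p = 0.00868), the latter lost without 6 h replicate 2 (adjusted p = 0.118). TNFRSF17, the BCMA receptor of plasma cells, averaged 30.3, 29.5 and 34.5 CPM and was not called.

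Of 11 kinases 1 rose and 1 fell at 2 h (18.2% called, against 17.0% of all genes), and 3 rose and 3 fell at 6 h (54.5%, against 36.6%). MAP3K8, a kinase that links the NFKB1 product to ERK signalling, went from 5.21 and 6.33 CPM to 11.3 and 9.52 CPM at 2 h and 12.6 and 14.4 CPM at 6 h (0.84 ± 0.198, adjusted p = 0.00167, and 1.22 ± 0.196, adjusted p = 1.72e-06). IKBKB, the catalytic IKK subunit of the canonical pathway, fell at 6 h (-0.34 ± 0.0978, adjusted p = 0.00522), a call lost without DMSO replicate 1 (adjusted p = 0.0787) or 6 h replicate 1 (adjusted p = 0.0822). Of 19 adaptors and ubiquitin enzymes 3 rose and 3 fell at 2 h (31.6%, against 17.0% of all genes), and 7 rose and 4 fell at 6 h (57.9%, against 36.6%). TRAF1, an adaptor that is an NF-kB target, rose at both times, from 20.7 and 22.9 CPM to 38.2 and 39.0 CPM and then 37.1 and 35.9 CPM (0.82 and 0.75, adjusted p = 6.28e-07 and 1.41e-06). IRAK1, a kinase of Toll-like receptor signalling, fell at 6 h from 497 and 446 CPM to 293 and 302 CPM (-0.67 ± 0.0602, adjusted p = 1.5e-12), while its relative IRAK4 rose (0.69 ± 0.115, adjusted p = 3.19e-06). TANK, a TRAF-binding regulator, rose at 6 h (0.68 ± 0.122, adjusted p = 1.26e-05), and UBE2N, a ubiquitin-conjugating enzyme, fell (-0.38 ± 0.0793, adjusted p = 0.000156).

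Of 10 tested brakes on the pathway other than the members, 2 were called at 2 h, both lower (20.0%, against 17.0% of all genes), and 4 rose and 2 fell at 6 h (60.0%, against 36.6%). CYLD, a deubiquitinase that restrains NF-kB signalling, had 61.6 and 65.5 CPM in DMSO, 62.7 and 62.6 CPM at 2 h and 97.6 and 91.1 CPM at 6 h. Only its 6 h libraries stood apart (0.57 ± 0.0872, adjusted p = 7.31e-07; from 2 h to 6 h 0.59 ± 0.0871, adjusted p = 7.55e-07). TAX1BP1, a partner of the TNFAIP3 enzyme, rose at 6 h from 234 and 262 CPM to 349 and 333 CPM (0.46 ± 0.0634, adjusted p = 9.88e-08). ZC3H12A, an RNase that degrades inflammatory transcripts, fell at 6 h from 18.9 and 17.4 CPM to 9.58 and 12.3 CPM (-0.73 ± 0.165, adjusted p = 0.000344). Its fall at 2 h (-0.52, adjusted p = 0.0193) was lost without DMSO replicate 1 (adjusted p = 0.0881) or 2 h replicate 2 (0.164) and in DESeq2 (0.0509).

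Of 21 tested genes listed as targets beyond the members, 6 rose and 1 fell at 2 h (33.3%, against 17.0% of all genes). At 6 h 9 rose and 2 fell (52.4%, against 36.6%). Some of those called higher at both times averaged under 4 CPM and are not named, 1 of them with 2 and 4 counts in the DMSO libraries. CXCL8, a chemokine gene, rose from 3.54 and 4.77 CPM to 10.6 and 9.99 CPM at 2 h and 20.2 and 17.2 CPM at 6 h (1.29 ± 0.200, adjusted p = 3.33e-06, and 2.16 ± 0.196, adjusted p = 1.48e-12). Unlike that of ICAM1, the level of CXCL8 rose again from 2 h to 6 h (0.87 ± 0.178, adjusted p = 0.000178). TNFAIP8, an inhibitor of apoptosis, stood at 59.7 and 68.4 CPM, then 92.1 and 95.4 CPM and 99.0 and 97.5 CPM (0.55 and 0.62, adjusted p = 3.74e-06 and 9.88e-08). BCL2L1, the gene of an anti-apoptotic BCL2 relative, rose at 6 h (0.63 ± 0.151, adjusted p = 0.000711). WNT10A fell at 6 h from 40.0 and 38.5 CPM to 20.7 and 17.6 CPM (-1.04 ± 0.123, adjusted p = 2.35e-09). CD74 and IL2RG, also listed as targets, averaged 337, 372 and 357 CPM and 68.1, 73.8 and 72.1 CPM, and neither was called.

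**Figure D4:**
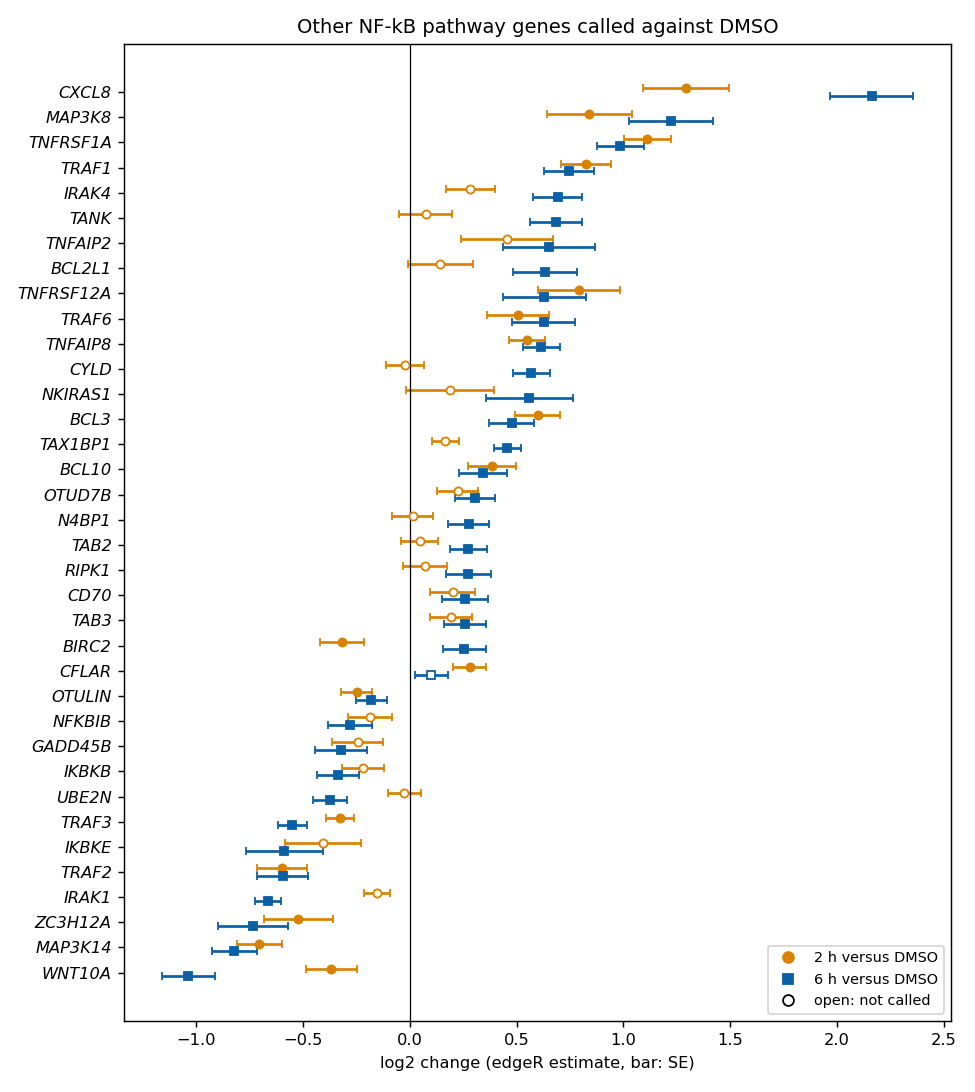
Log2 change on the horizontal axis, with its SE as a bar, of the 36 other pathway genes called against DMSO at 2 h (circles) or 6 h (squares) with a mean of at least 4 CPM; open symbols were not called at that time. CXCL8 lies farthest right (2.16 at 6 h) and WNT10A farthest left (-1.04 at 6 h), with MAP3K14, TRAF2 and TRAF3 left of 0 at both times.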

How the data were processed

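Per the file headers, the deposited counts are whole fragment counts per gene made by the authors with featureCounts 2.0.0 on GENCODE 34, ignoring strand, from read pairs with both ends mapped at a mapping quality of at least 20. The submitters' processing notes name Trimmomatic, STAR and hg38. One record broken over several lines was rejoined. Symbols came from a gene name table (60370 of 60728 records matched). Tests used edgeR 4.0.16 (R 4.3.3): filterByExpr, TMM scaling, a single quasi-likelihood model with group means over the 6 libraries, and Benjamini-Hochberg adjustment over 15548 genes. The spread rested on 3 residual degrees of freedom per gene and 42.8 shared over genes. SEs derive from the F statistic. CPM and RPKM were computed from the counts, the TMM factors and the exonic lengths in the table. No pair of replicates agreed within sampling noise. Chi-square over its degrees of freedom was largest in DMSO, at 8.41, against 4.15 at 2 h and 3.57 at 6 h. The members and lists were chosen with earlier results of these data known. All 10 members were named. Other pathway genes were named among those called against DMSO with a mean of at least 4 CPM. A few uncalled ones (RELA, TNFRSF1B, TNFRSF17, CD74, IL2RG, and those of the closing section) were named for their role. WAKMAR2 was named as an overlapping gene. The procedure was tested on simulated data. Alternatives were DESeq2 1.42.0, limma 3.58.1 voom, other scalings, filters and thresholds, robust dispersions, fits of the compared groups, a replicate block and leaving out each library. Figures used Python 3.11.15 and matplotlib 3.10.9. One marker gene of another cell type is not reported here. Levels on unshared exonic length were added after seeing the data.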

Additional observations from a re-analysis of the deposited data

Results flagged for a closer look

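The levels of 5 members differed between 6 h and 2 h of WNK463 by the direct test (edgeR, adjusted p under 0.05). With 1 DMSO group, whose time is not given, a change in the effect of WNK463 and time in culture cannot be told apart. From 2 h to 6 h the log2 change was -0.78 for ICAM1, -0.36 for BIRC3, -0.40 for NFKBIA and -0.37 for NFKBIE, and 0.38 for RELB. ICAM1, BIRC3 and NFKBIA had risen at 2 h, and RELB rose at 6 h.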

How the results depend on the processing

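The number of members called at 2 h against DMSO (3) stayed between 3 and 4 under all 16 alternatives. At 6 h against DMSO the 2 became 4 with library size alone or a mean of at least 4 CPM, 1 with no filter or in DESeq2, and 0 at an adjusted p under 0.01, and ranged from 0 to 4 on leaving out a library. From 2 h to 6 h the 5 ranged from 3 to 6. The other pathway genes called numbered 13 at 2 h (against 20) and 9 from 2 h to 6 h (against 14) at an adjusted p under 0.01. On leaving out a library they numbered 14 to 25 at 2 h, 25 to 38 at 6 h (against 39; 25 without 6 h replicate 1) and 9 to 19 between the times (9 without 2 h replicate 2). Of 450 recomputed member changes, 406 kept direction and side of the threshold, 13 lost and 14 gained a call, and 17, none of them of a called change, turned in sign; the cause was not tested. Where a left-out library turned the sign, the log2 change over such fits ranged as follows. At 2 h it ran from -0.0949 to 0.0133 for NFKB2 and from -0.172 to 0.0473 for RELB (both turned without DMSO replicate 1), from -0.30 to 0.28 for REL (without DMSO replicate 2) and from -0.16 to 0.51 for NFKBIZ (without 2 h replicate 2). At 6 h it ran from -0.0225 to 0.55 for REL (without DMSO replicate 1), from -0.00308 to 0.117 for NFKBIA (without 6 h replicate 2), from -0.0599 to 0.0685 for NFKBIZ (without DMSO replicate 1 or 6 h replicate 2) and from -0.112 to 0.0961 for ICAM1 (without DMSO replicate 1 or 6 h replicate 1). Between the times it ran from -0.0692 to 0.00085 for NFKB2 (without 6 h replicate 2) and from -0.51 to 0.16 for NFKBIZ (without 2 h replicate 2). Other settings turned NFKBIZ at 6 h in limma voom (-0.000683), ICAM1 at 6 h with library size alone (0.0252) or a mean of at least 4 CPM (0.0067), and, between the times with library size alone, NFKB1 (0.0301) and NFKB2 (0.0327). Replicates with the same number did not deviate together (correlations of -0.0381 to -0.0054 between groups), and with a replicate block the members called were 3, 2 and 5 and the other pathway genes 20, 38 and 15, in the order 2 h, 6 h and between the times. Counts under 3 in a library cannot be told from 0.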

Other observations

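Several ligands, receptors and targets of the pathway were at or near the counting floor in JJN3. CD40, a receptor of the noncanonical pathway in B cells, and TNF, the cytokine that activates the canonical one, had 0 counts in all 6 libraries, which allows up to 0.125 to 0.167 CPM by the limit of 3 counts. IL6, a growth factor for myeloma cells, had 2 counts in 6 h replicate 1 and 0 in the other libraries. LTB, a ligand of the lymphotoxin receptor, had 3 counts in DMSO replicate 1, 1 in 6 h replicate 2 and 0 elsewhere, and VCAM1, an adhesion gene often induced with ICAM1, had 3 in 2 h replicate 2 alone. LTA, the partner of LTB, had 1 to 10 counts per library. None of these genes passed the filter on low counts, so no test was made of them.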
